A study of Mus musculus with 18 samples.

Results

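Macrophages read metabolites and lipids around them through G-protein coupled receptors, and 10 of these receptor genes were followed across all groups of bone marrow-derived macrophages (BMDMs): Gpr84, Hcar2, Gpr35, Gpr65, Gpr132, Gpr183, Gpr18, Ptger2, Ptger4 and Ptafr. The members were taken by gene name, as 10 of the 21734 protein-coding genes of the deposited count table. They were chosen with earlier results of these data known, so they are not an unselected set. All 10 passed the filter on low counts that kept 11357 genes. BMDMs, which are marrow cells grown with 10 ng/ml M-CSF for 8 to 9 days, came from mice of 6 to 7 months by the labels, on a mixed 129/B6 background, 3 mice of each genotype. The study's methods give a younger age for BMDM lysates used in its proteomics, which were said to be fractions of the same replicates. Wild-type (WT) mice carry the normal mir-146a gene, KO mice lack the precursor of this microRNA, and 3′F mice carry a miR-146a whose seed is kept while its 3′ part is altered. Cells of each genotype received fresh medium alone (resting) or fresh medium with 1 ng/ml lipopolysaccharide (LPS), a bacterial ligand of the receptor TLR4, for 16 h, with 3 libraries in each of the 6 groups. Both mutant alleles are germline changes present in every cell, and the study's methods state that the KO and 3′F lines were backcrossed 3 times to C57BL6/J and kept as separate colonies, with WT controls taken equally from both lines. The labels do not give the line of each WT library, so in each mutant the allele and its line background cannot be told apart. The comparison of WT, KO and 3′F asks whether the non-seed sequence of miR-146a matters for macrophage gene expression.

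These receptors sit at the cell surface, bind a small molecule or sense protons, and activate heterotrimeric G proteins. Receptors that couple to Gs raise cyclic AMP and tend to dampen inflammatory output of macrophages, whereas those that couple to Gi lower cyclic AMP and often drive migration. miR-146a is induced by NF-kB and has been reported to limit signalling from TLR4 through the kinase IRAK1 and the adaptor TRAF6. In its own BMDMs the study saw raised IRAK1 protein in KO after LPS and no altered TRAF6. The mature strand encoded on the minus strand at chr11:43374435-43374456 (RefSeq, GRCm38.p6) and the strand of the 3′F mimic that the study designed are shown. They hold the bases that differ between WT and 3′F. The seed (bases 2 to 8 from the 5′ end) is in capitals, and over the 20 bases compared the strands differ at 8 positions, 13 to 20. The mimic strand is printed up to base 20, while the study states that later positions of the allele were left unchanged.
miR-146a-5p: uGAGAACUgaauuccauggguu
miR-146a-5p 3′F mimic: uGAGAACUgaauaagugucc

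Library totals ran from 4071084 to 19818043 counts, lowest in resting 3′F replicate 3. Values are given as CPM, the counts per 1000000 counts of a library size scaled by the TMM method. The macrophage label held in the data, as all 8 macrophage markers were present in each group, with summed levels of 31770 to 87900 CPM. Markers of T, B, NK and dendritic cells summed to at most 12.2, 2.34, 0.468 and 4.68 CPM in any library. Those of mast cells and eosinophils, stromal cells, and erythroid cells and megakaryocytes reached at most 20.6, 3.45 and 3.93 CPM. The 10 neutrophil markers summed to 37.0 to 80.3 CPM at rest and 77.3 to 231 CPM with LPS. Ly6g, which defines mature neutrophils, had no count in any resting library and at most 0.128 CPM with LPS. Csf3r and S100a8 of the same list reached up to 164 and 48.3 CPM in a library. A list of 10 interferon response genes stood at 10600 CPM in resting KO replicate 3, against 485 and 332 CPM in resting KO replicates 1 and 2 and 66.0 to 167 CPM in resting WT. That library therefore stood apart from its group, and counts of called receptors are also given with it and resting 3′F replicate 3 left out. The deleted or altered microRNA was not analysed here, and the genotype labels were therefore not checked against it. In bulk RNA, fewer cells of a type and less RNA per cell cannot be told apart.

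Levels of different genes were compared as CPM per kb of exon. In resting WT BMDMs Ptafr, the receptor of platelet-activating factor, had the highest level of the 10 at 59.6 CPM per kb (range 50.6 to 64.4). Gpr65 followed at 22.0 (17.7 to 27.2) and Gpr183 at 14.8 (14.2 to 15.2), and none of these 3 overlapped its neighbour in the order. Ptger2 at 6.37, Gpr84 at 5.72 and Ptger4 at 5.32 CPM per kb came next, and neighbours among them overlapped. Gpr132 stood at 2.79 and Hcar2 at 1.09, and the lowest pair, Gpr35 at 0.285 and Gpr18 at 0.0910, overlapped. With LPS the order in WT changed, with Gpr84 at 75.6 CPM per kb (66.5 to 87.3) next to Ptafr at 85.4 (76.3 to 97.3), 2 ranges that overlap. In KO BMDMs with LPS Gpr84 was first at 97.7 CPM per kb (79.3 to 121), and it again overlapped Ptafr at 85.3 (72.5 to 94.4). Ptafr was first by mean in the other 5 groups.

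**Figure D1:**
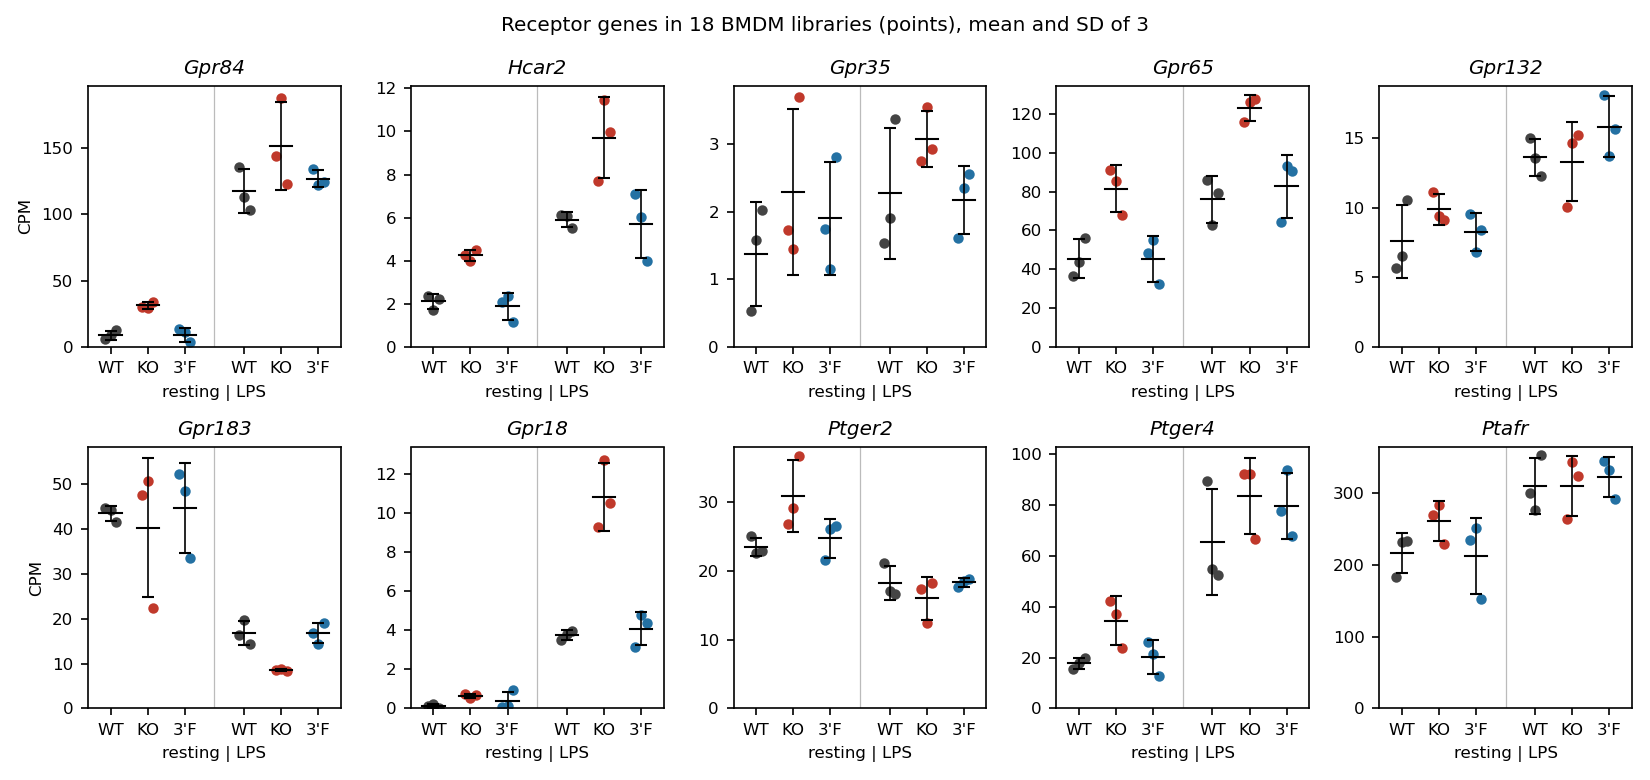
Level of each receptor gene in CPM (linear vertical axis from 0) in the 18 libraries, split into resting and LPS; points are libraries and horizontal lines with bars are the mean and SD of 3. Gpr84 went from 5.65 to 12.4 CPM in resting WT to 103 to 135 CPM with LPS, while Gpr183 fell from 41.7 to 44.8 CPM to 14.3 to 19.7 CPM.

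LPS changed most of these receptors. In WT BMDMs 8 of the 10 were called at an adjusted p under 0.05, against 28.5% of all genes tested. Of these, 7 were higher (16.3% of all genes) and 1, Gpr183, was lower (12.3% of all genes). In KO 7 of 10 were called (26.9% of all genes), 5 higher (14.3%) and 2 lower (12.6%). In 3′F 9 of 10 were called (31.2%), 7 higher (17.2%) and 2 lower (14%). The median log2 fold change of the 10 was 0.81 in WT, 0.53 in KO and 0.89 in 3′F, beside medians over all genes of 0.016, 0.0185 and −0.00849. Without resting KO replicate 3 and resting 3′F replicate 3, 6 receptors were called in KO and 9 in 3′F, with Gpr65 in KO no longer called (0.40, adjusted p = 0.0793).

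Among receptors of metabolites, Gpr84, which responds to medium-chain fatty acids, moved most. Its level in resting WT was 5.65, 8.58 and 12.4 CPM and with LPS 135, 113 and 103 CPM. All LPS libraries were far above all resting ones. With LPS it stood at 144, 188 and 123 CPM in KO and at 134, 122 and 124 CPM in 3′F, so KO replicate 2 was the highest of all. The log2 fold change was 3.74 ± 0.32 (SE; adjusted p = 6.45e-07) in WT, 2.28 ± 0.30 (3.19e-05) in KO and 3.68 ± 0.32 (6.43e-07) in 3′F. Hcar2, the receptor of the ketone body beta-hydroxybutyrate and of niacin, stood at 2.37, 1.73 and 2.22 CPM in resting WT and at 6.14, 6.07 and 5.50 CPM with LPS. The groups again did not overlap, and the rise was 1.48 ± 0.24 (adjusted p = 0.000275) in WT, 1.20 ± 0.22 (0.000789) in KO and 1.51 ± 0.25 (0.000271) in 3′F. Gpr35, for which kynurenic acid is a proposed ligand, had 8 to 49 counts per library. It was called in none of the 11 comparisons, and its LPS difference in WT had a 95% interval from −0.24 to 1.75 on the log2 scale.

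Gpr65, a proton sensor that couples to Gs, stood at 36.6, 43.5 and 56.2 CPM in resting WT and at 85.9, 62.6 and 79.5 CPM with LPS. The lowest LPS library was only slightly above the highest resting one. Its log2 fold change was 0.74 ± 0.20 (adjusted p = 0.0115) in WT, 0.59 ± 0.20 (0.0374) in KO and 0.85 ± 0.20 (0.00503) in 3′F. The call in WT was lost without WT replicate 1 of either state (0.65 with adjusted p = 0.0543 without the LPS library, 0.61 with 0.0567 without the resting one). The call in KO was lost without any 1 of the 6 libraries (adjusted p of 0.0507 to 0.153). Gpr132, an acid- and lipid-responsive receptor of the same subfamily, was at 5.65, 6.55 and 10.5 CPM in resting WT and at 15, 13.6 and 12.3 CPM with LPS, again without overlap. It rose by 0.86 ± 0.22 (adjusted p = 0.00776) in WT and 0.94 ± 0.22 (0.00458) in 3′F, while in KO the estimate was 0.42 ± 0.22 (0.162).

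Gpr183, the receptor of oxysterols that guides leukocytes in lymphoid tissue, and Gpr18, a receptor for which lipid amides and resolvins have been proposed as ligands, moved in opposite directions. Gpr183 stood at 44.8, 44.2 and 41.7 CPM in resting WT and at 16.5, 19.7 and 14.3 CPM with LPS. In 3′F it went from 52.4, 48.4 and 33.5 CPM to 16.9, 14.5 and 19.0 CPM. The fall was clear of the spread in every genotype, with log2 fold changes of −1.37 ± 0.24 (adjusted p = 0.000452) in WT, −2.25 ± 0.25 (6.01e-06) in KO and −1.44 ± 0.24 (0.000316) in 3′F. Gpr18 had 2, 3 and 0 counts in the resting WT libraries and 50, 56 and 54 with LPS (0 to 0.226 CPM against 3.49 to 3.96 CPM). At such counts a fitted fold depends on the prior count, so the ratio of summed counts per summed library size is given, which was 29.2 with a 95% exact interval for counting error alone of 12.2 to 91. In KO the ratio was 16.5 (11.1 to 25.8), from 12, 7 and 6 counts at rest to 135, 176 and 148 with LPS. In 3′F it was 23.2 (11 to 58.5), from 1, 2 and 4 to 43, 87 and 34. Without resting 3′F replicate 3, the shallowest library and the one with 4 counts, the 3′F ratio was 48.2 (16.2 to 236). Gpr18 was called in each genotype, with adjusted p of 1.02e-05, 2.29e-06 and 1.76e-05 in WT, KO and 3′F.

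The receptors of prostaglandin E2 split. Ptger4 encodes EP4 and stood at 15.4, 17.9 and 19.9 CPM in resting WT and at 89.7, 54.8 and 52.3 CPM with LPS, so every LPS library was above the resting ones. Its log2 fold change was 1.89 ± 0.27 (adjusted p = 8.54e-05) in WT, 1.27 ± 0.26 (0.00167) in KO and 1.94 ± 0.27 (6.02e-05) in 3′F. Ptger2, which encodes EP2 and like EP4 couples to Gs, went the other way, from 25.0, 22.6 and 22.8 CPM to 21.1, 17.0 and 16.6 CPM in WT, an estimate of −0.37 ± 0.15 that was not called (0.0883). In KO it fell from 26.8, 29.1 and 36.7 CPM to 17.4, 12.5 and 18.2 CPM. That fall was −0.94 ± 0.16 (adjusted p = 0.000292), and in 3′F the change was −0.43 ± 0.16 (0.0493). The 3′F call was lost without any 1 of the 3 LPS libraries or resting replicates 2 or 3 (adjusted p of 0.0711 to 0.133). Ptafr stood at 184, 232 and 234 CPM in resting WT and at 301, 277 and 354 CPM with LPS. It rose by 0.52 ± 0.17 (adjusted p = 0.0326) in WT and 0.60 ± 0.17 (0.0152) in 3′F, and the KO estimate was 0.25 ± 0.17 (0.307). The Ptafr call in WT was lost without resting replicate 1 or 2 or LPS replicate 1 or 3 (0.0548 to 0.143). In 3′F it was lost without LPS replicate 1 (0.0556) or resting replicate 3 (0.0823).

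**Figure D2:**
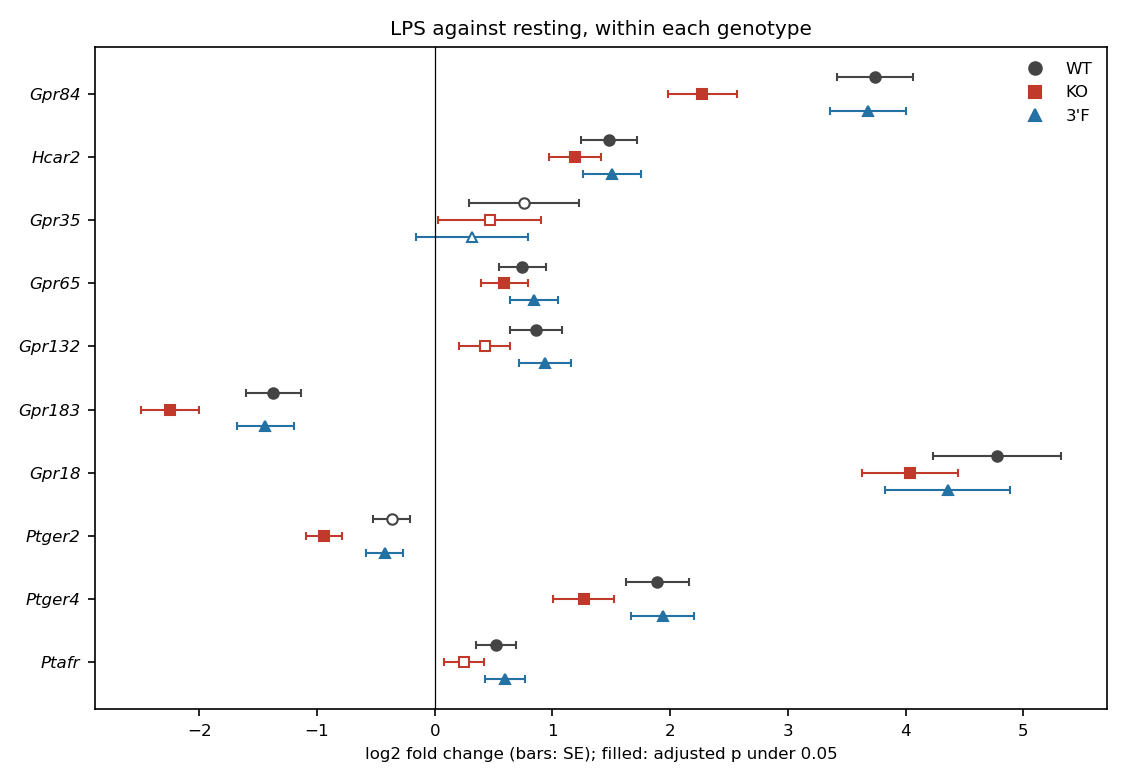
Log2 fold change of LPS against resting (horizontal axis; bars are SE) for each receptor gene in WT, KO and 3′F, filled where the adjusted p was under 0.05. Gpr18 and Gpr84 lie farthest to the right, Gpr183 lies left of 0 in all 3 genotypes (−1.37, −2.25 and −1.44), and Gpr35 has no filled symbol.

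An interaction term tested if LPS acted differently in each mutant and in WT. No receptor was called for KO (0.00881% of all genes, which is 1 gene, Clmp, named after its value was seen) or for 3′F (0% of all genes). The KO term contains the difference of KO and WT at rest with its sign reversed, and that difference was positive for 9 of the 10. All 10 estimates of the KO term were negative, with a median of −0.505 beside −0.0187 over all genes, and 3 of them had an unadjusted p under 0.05 in the edgeR fit. These were Gpr84 at −1.47 ± 0.41 (adjusted p = 0.507), Gpr183 at −0.88 ± 0.33 (0.797) and Ptger2 at −0.57 ± 0.22 (0.797). For 3′F none had an unadjusted p under 0.05, and the median was −0.0155 beside −0.0125. DESeq2 called none in either test. With resting KO replicate 3 and resting 3′F replicate 3 left out, an alternative chosen after seeing the data, the Gpr183 response of KO differed from that of WT by −1.20 (adjusted p = 0.00677), and that of Gpr84 by −1.46 (0.0605). In this alternative the Gpr35 estimate was no longer negative (0.13, 0.972).

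At rest, KO BMDMs held more of 5 receptors than WT BMDMs, against 9.4% of all genes called and 5.12% called higher, and none was lower. The median log2 difference of the 10 was 0.79 beside 0.0169 over all genes. Gpr84 was at 30.2, 29.6 and 34.1 CPM in resting KO, above the highest of the WT libraries at 12.4 CPM. The difference was 1.84 ± 0.31 (adjusted p = 0.00271), and it was called without each of the 6 libraries in turn. Gpr65 was at 91.1, 85.6 and 68.0 CPM, higher by 0.85 ± 0.20 (0.0157). Hcar2 was at 4.27, 3.98 and 4.49 CPM, higher by 1.00 ± 0.25 (0.0175). Neither gene overlapped its WT values. In resting 3′F they were at 48.6, 55.3 and 32.3 CPM for Gpr65 and 2.09, 2.38 and 1.17 CPM for Hcar2, below every KO library. Ptger4 was at 42.4, 37.3 and 23.9 CPM, with the lowest library still above the WT maximum of 19.9 CPM, and was higher by 0.97 ± 0.27 (0.0305). Gpr18, with 25 counts over the KO libraries against 5 over the WT ones, had a ratio of 5.09 (95% exact counting interval 1.91 to 17; adjusted p = 0.0471).

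These calls at rest differed in how far they rested on single libraries. The Gpr18 call was lost without any 1 of the 6 libraries (adjusted p of 0.0579 to 0.131). The Ptger4 call was lost without any 1 of the 6 except resting KO replicate 3 (0.055 to 0.118), and without that library its difference was larger, with an adjusted p of 0.0138. Gpr65 was lost without resting WT replicate 1 (0.71, adjusted p = 0.0786) or 2 (0.82, 0.0688), and Hcar2 without resting WT replicate 2 (0.88, 0.0876). In a fit of the resting WT and KO libraries alone only Gpr84 was called and Gpr18 did not pass the filter, while 5 were called by DESeq2 and 5 with resting KO replicate 3 and resting 3′F replicate 3 left out. Against resting 3′F, KO was higher for 3 receptors (12.9% of all genes called, 6.79% higher), and none was lower. These were Gpr84 by 1.67 ± 0.31 (adjusted p = 0.00563), Hcar2 by 1.06 ± 0.25 (0.0143) and Gpr65 by 0.83 ± 0.20 (0.0172). None was called in a fit of those 6 libraries alone, with adjusted p of 0.135, 0.17 and 0.165, and the Gpr65 call was also lost without resting KO replicate 1 (0.0509) or resting 3′F replicate 3 (0.063). With both replicates 3 left out Hcar2 was no longer called (0.0552), and Gpr18 was (0.0208). All 10 genes of the interferon list were called higher in resting KO than in WT. Macrophage markers, mostly Lyz2, summed to 60520 to 62440 CPM in resting KO, 31770 to 47840 CPM in WT and 42650 to 62330 CPM in 3′F, with 2 of the 8 called higher and 1 lower between KO and WT. Neutrophil markers summed to 60.4 to 77.2 CPM in resting KO, 37.0 to 48.1 CPM in WT and 37.9 to 80.3 CPM in 3′F. Their part in the receptor differences was not tested.

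With LPS, KO differed from WT at 2 receptors, against 4.79% of all genes. Gpr18 was higher (1.89% of all genes were) and Gpr183 was lower (2.9% of all genes were). Gpr18 stood at 9.30, 12.7 and 10.6 CPM in KO and at 3.49, 3.82 and 3.96 CPM in WT, a difference of 1.53 ± 0.33 (adjusted p = 0.0145). Gpr183 stood at 8.47, 8.76 and 8.35 CPM in KO and at 16.5, 19.7 and 14.3 CPM in WT, a difference of −0.98 ± 0.25 (0.0322). The KO libraries were clear of WT for both genes, and lay close together for Gpr183 but not for Gpr18. The Gpr18 call was lost without WT replicate 1 (1.48, adjusted p = 0.0527) or 2 (1.54, 0.0664) or KO replicate 2 (1.39, 0.0832). The Gpr183 call held without WT replicate 3 alone, and was lost without each other library (0.065 to 0.156). Gpr65 stood at 115.7, 126 and 127.7 CPM in KO and Hcar2 at 7.71, 11.4 and 9.99 CPM, each above its highest WT library (85.9 and 6.14 CPM). They had estimates of 0.70 ± 0.20 (0.0581) and 0.72 ± 0.21 (0.0649) and both were called in a fit of the 6 libraries alone (0.0163 and 0.0457) and by DESeq2 (0.0256 and 0.0422). Gpr84, so different at rest, had an estimate of 0.37 ± 0.28 (0.557) with an interval from −0.22 to 0.96. KO also differed from 3′F with LPS at Gpr18, by 1.41 ± 0.33 (0.027), and at Gpr183, by −0.97 ± 0.25 (0.0382), with 3.88% of all genes called, 1.51% higher and 2.37% lower. Both calls were lost without any 1 of the 6 libraries (0.0506 to 0.15). Neutrophil markers summed to 161 to 231 CPM in KO with LPS against 77.3 to 133 CPM in WT and 114 to 136 CPM in 3′F, mostly Csf3r and S100a8, and their part in these differences was not tested.

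BMDMs of 3′F mice were not called different from WT at any receptor. This held at rest (0% of all genes called) and with LPS (0.00881% of all genes called). No receptor had an unadjusted p under 0.05 in the edgeR fit in either state, and DESeq2 called none. The median difference of the 10 was 0.101 at rest and 0.0851 with LPS, beside 0.00299 and −0.00625 over all genes. The estimates with LPS ran from −0.07 for Gpr35 to 0.28 for Ptger4. The intervals show what size of difference these libraries leave possible. For Gpr84 with LPS the 95% interval was −0.48 to 0.71 on the log2 scale, for Gpr183 −0.52 to 0.49 and for Gpr18 −0.60 to 0.85. At rest it was −0.50 to 0.84 for Gpr84 and −1.31 to 2.40 for Gpr18, where counts were few. Resting 3′F replicate 3, the shallowest library, was the lowest of its group for Gpr84 (3.28 CPM against 13.1 and 10.9), Ptger4 (12.9 CPM against 26.3 and 21.5) and Ptafr (153 CPM against 235 and 252). It was also lowest for Gpr65, Hcar2 and Gpr183, and highest for Gpr18, Gpr35 and Ptger2. Without it and resting KO replicate 3, estimates at rest were 0.47 for Gpr84 (0.17 with all libraries), 0.44 for Ptger4 (0.24) and −0.53 for Gpr18 (0.54). None of the 10 was called in that alternative.

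**Figure D3:**
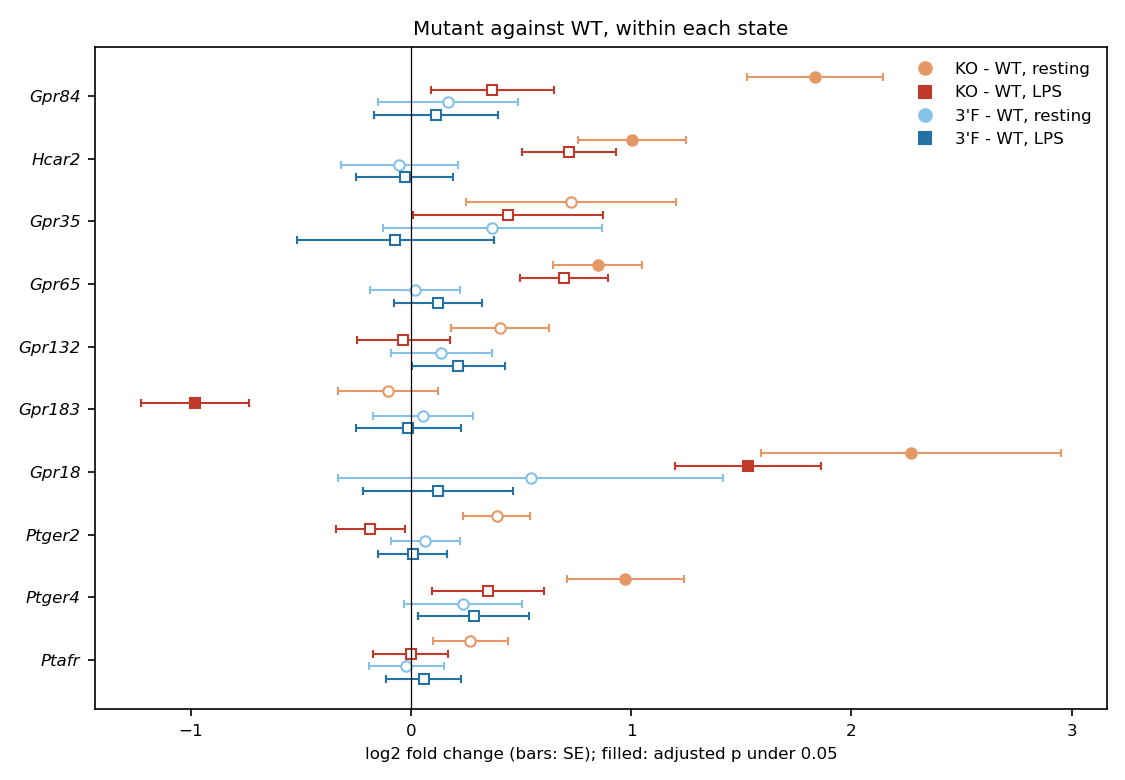
Log2 fold change of KO against WT and of 3′F against WT for each receptor gene (horizontal axis; bars are SE), at rest and with LPS, filled where the adjusted p was under 0.05. The KO points of Gpr84, Gpr65, Gpr18, Hcar2 and Ptger4 are filled at rest, those of Gpr18 (1.53) and Gpr183 (−0.98) with LPS, and no 3′F point is filled.

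Gpr18 and Gpr183 are neighbours. Both lie on the minus strand of chromosome 14 (GRCm38), Gpr18 at 121911253 to 121915781 and Gpr183 at 121952551 to 121965195, with their 5′ ends 49.4 kb apart, and both overlap Ubac2 on the other strand. Reads were counted by strand. Across the 18 libraries their log2 CPM had a Pearson r of −0.933, a description over libraries that share the LPS and KO contrasts. The interferon list stood at 10600 CPM in resting KO replicate 3, and in that library Gpr183 was at 22.5 CPM against 47.7 and 50.9 CPM in the other resting KO libraries, while Gpr18 was at 0.674 CPM, between 0.535 and 0.742. Gpr84 was at 34.1 CPM there, little above its 2 companions. Gpr183 was thus low and Gpr18 was not high in this 1 library, whereas in all LPS libraries both had moved. Gpr65 (68.0 CPM), Ptger4 (23.9 CPM), Gpr132 (9.09 CPM) and Ptafr (229 CPM) were also lowest there among the resting KO libraries. Hcar2, Ptger2 and Gpr35 were highest there. A link of Gpr183 to the interferon list was not tested.

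**Figure D4:**
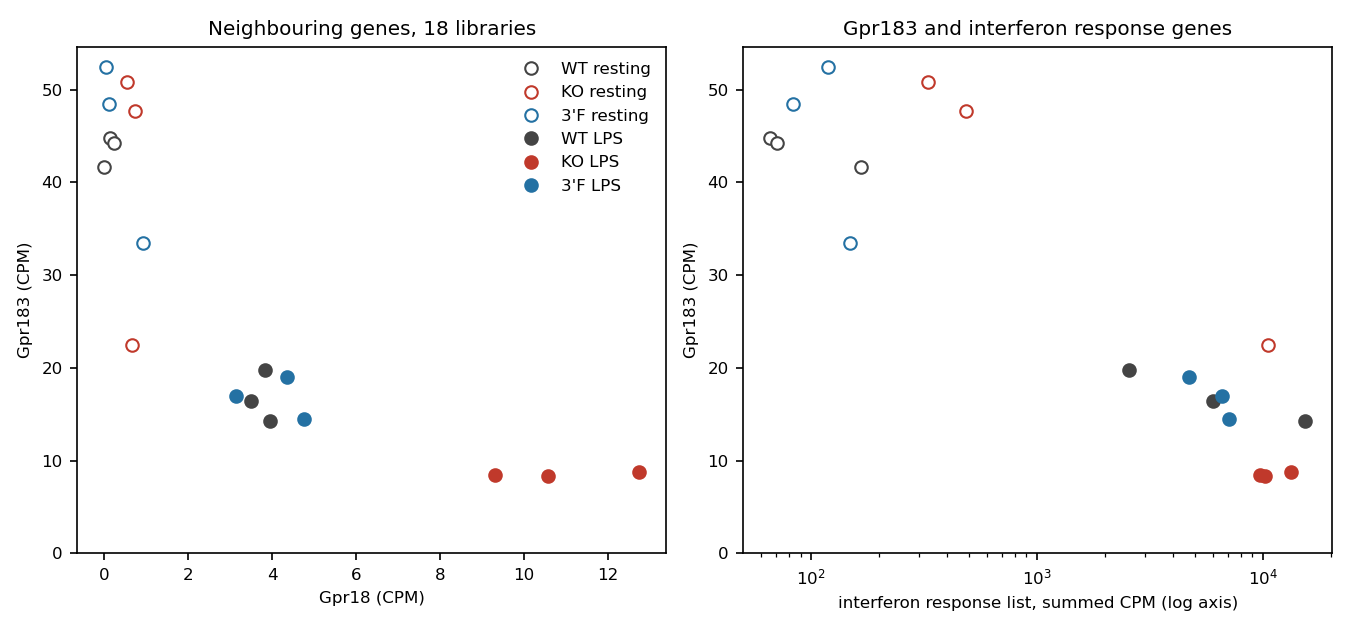
Left, Gpr183 against Gpr18 in CPM, and right, Gpr183 in CPM against the summed level of 10 interferon response genes (log axis), in the 18 libraries; open symbols are resting and filled ones LPS. KO libraries with LPS combine the highest Gpr18 (9.30 to 12.7 CPM) with the lowest Gpr183 (8.35 to 8.76 CPM), and resting KO replicate 3 lies at 22.5 CPM of Gpr183 and 10600 CPM of interferon response genes.

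The promoters of Gpr18 and Gpr183 are shown as those of neighbours with opposite changes, and that of Gpr84 as the member with the largest fitted difference between KO and WT at rest among those well above the floor. Each covers 250 bases before to 50 after the RefSeq start (GRCm38.p6, minus strand, 5′ to 3′), at chr14:121915839-121916138 for Gpr18, chr14:121965144-121965443 for Gpr183 and chr15:103310389-103310688 for Gpr84. RefSeq starts can differ from the GENCODE 5′ ends. That of Gpr84, at 103310612, lies within its window, so part of the bases shown is inside the GENCODE gene. Capitals mark matches to the motifs searched.
Gpr18: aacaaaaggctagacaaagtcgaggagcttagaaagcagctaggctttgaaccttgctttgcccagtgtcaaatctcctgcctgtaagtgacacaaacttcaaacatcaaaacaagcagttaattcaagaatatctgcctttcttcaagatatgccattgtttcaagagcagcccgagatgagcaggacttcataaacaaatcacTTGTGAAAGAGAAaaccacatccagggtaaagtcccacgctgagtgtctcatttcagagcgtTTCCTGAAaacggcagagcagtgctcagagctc
Gpr183: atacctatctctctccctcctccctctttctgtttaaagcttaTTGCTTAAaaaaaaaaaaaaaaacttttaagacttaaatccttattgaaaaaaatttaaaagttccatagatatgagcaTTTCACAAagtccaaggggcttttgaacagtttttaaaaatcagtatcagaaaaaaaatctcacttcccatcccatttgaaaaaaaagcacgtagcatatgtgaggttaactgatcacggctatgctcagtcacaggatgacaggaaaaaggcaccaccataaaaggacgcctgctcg
Gpr84: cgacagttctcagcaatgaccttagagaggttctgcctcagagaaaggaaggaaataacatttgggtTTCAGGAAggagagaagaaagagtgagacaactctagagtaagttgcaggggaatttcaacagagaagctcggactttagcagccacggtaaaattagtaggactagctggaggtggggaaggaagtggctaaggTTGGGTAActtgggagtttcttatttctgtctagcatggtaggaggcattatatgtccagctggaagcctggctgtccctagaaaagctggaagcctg

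Both strands were searched for NF-kB (by its standard degenerate site), AP-1 (TGANTCA), CRE (TGACGTCA), an ISRE core (GAAANNGAA), C/EBP (TTNNGNAA), PU.1 (GAGGAAGT) and a TATA box (TATAAA), in the 9 members with a promoter entry and in all 32851 promoters of this length. C/EBP letters were in 6 of the 9 members and in 40.7% of all promoters. The ISRE core was in 1 member, Gpr18, from position −41 and overlapping a C/EBP match that starts at −45, and in 8.56% of all. AP-1 was in 1 of the 9 (Gpr35; 7.81% of all) and the TATA box in 1 (Gpr65; 13.6%). NF-kB, CRE and PU.1 letters were in none of the 9, and in 4.51%, 1.79% and 3.2% of all. GC content was 44% for Gpr18, 35.3% for Gpr183, 47% for Gpr84 and 67% for Ptger4, beside a median of 52.7%. These matches describe letters and not sites. They hold for the RefSeq starts alone, and the windows of Gpr35 and Gpr132 lie wholly within their GENCODE genes.

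A 7mer or 8mer match to the miR-146a seed lay in the longest annotated 3′ UTR of 2 of the 10 members, beside 17.5% of 21578 genes with such an annotation, and at least a 6mer in 5 of the 10, beside 28.6%. The sites are shown because miR-146a keeps its seed in WT and 3′F and is absent in KO, with the matched bases in capitals. The related miR-146b-5p has the same seed (RefSeq), and its gene is retained in KO mice per the study. From small RNA sequencing of BMDMs the study proposes a raised level of mature miR-146b in KO cells, and saw no such rise in 3′F cells. Gpr35 has an 8mer whose core starts at base 1453 of 2900, and Gpr65 a 7mer-A1 with its core at base 446 of 541. For Gpr65 the KO against WT estimates were 0.85 ± 0.20 at rest (adjusted p = 0.0157) and 0.70 ± 0.20 with LPS (0.0581, not called). Its 3′F against WT estimates were 0.02 ± 0.20 and 0.12 ± 0.20. For Gpr35 the KO estimates were 0.73 ± 0.48 and 0.44 ± 0.43. Gpr84, Gpr132, Gpr183, Gpr18 and Ptger4 had no match in that sequence. Of these, Gpr84, Gpr18 and Ptger4 were called higher in resting KO than in WT. Hcar2, Ptger2 and Ptafr had a 6mer only, and among them Hcar2 was called higher in resting KO (1.00 ± 0.25, 0.0175). For predicted miR-146a targets as a set, the study saw no rise in KO BMDMs in RNA or protein. Whether any site acts in these cells was not tested.
Gpr35 site: ctctccctccAGTTCTCAca
Gpr65 site: ataaaagaaatGTTCTCAtg

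Over the 18 libraries, which share the LPS and genotype contrasts, members ran together to different degrees. Pearson r of log2 CPM was 0.966 between Gpr84 and Ptger4, 0.933 between Gpr84 and Hcar2 and 0.898 between Hcar2 and Ptger4. Gpr183 went with Ptger2 (0.702) and against Hcar2 (−0.836) and Gpr84 (−0.832). Gpr35 had its highest r with Gpr18 (0.573) and its lowest with Gpr183 (−0.621). Among all other genes with a mean log2 CPM of at least 1, those most like Gpr84 were Ppp1r12b (0.99), Ptprj (0.988) and Nfkb2 (0.988), and those most like Gpr183 were Pparg (0.981), Rab3gap2 (0.98) and Atp6v0a1 (0.976). Siglece (0.983), Slamf6 (0.977) and Cebpd (0.977) were most like Gpr18, St3gal1 (0.986), Ifnar1 (0.985) and Ankrd50 (0.98) most like Ptger4, and Itgal (0.971), Pfkfb4 (0.971) and Tnfrsf14 (0.969) most like Hcar2. Itga4 (0.957) led for Gpr65, Trim13 (0.918) for Gpr132, B3glct (0.91) for Ptger2 and Mrpl30 (0.854) for Gpr35.

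Genes that make or remove the ligands were taken from lists. Of 8 tested genes of prostaglandin E2 supply and removal, 3 were higher and 2 lower with LPS in WT, beside 16.3% and 12.3% of all genes. Ptges, the inducible terminal synthase, went from 8.28, 8.13 and 9.96 CPM to 396, 339 and 423 CPM (5.46 ± 0.29, adjusted p = 8.83e-09), without overlap. Pla2g4a, which frees arachidonic acid, rose by 0.63 ± 0.09 (0.000117) and the exporter Abcc4 by 0.50 ± 0.17 (0.0353), while Ptgs1 (−1.27 ± 0.23, 0.00078) and Hpgd, the degrading dehydrogenase (−3.48 ± 0.73, 0.00215), fell. Ptgs2, the inducible cyclooxygenase, had an estimate of 1.77 ± 0.67 (0.0603). In resting KO 1 of the 8 was higher than in WT (5.12% of all genes), Ptges by 1.23 ± 0.26 (0.00867). It stood at 14.2, 15.3 and 32.9 CPM there, highest in replicate 3, the library with the high interferon list. With LPS 1 was higher in KO than in WT (1.89% of all genes), Pla2g4a by 0.35 ± 0.09 (0.0375).

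Of 8 genes of platelet-activating factor supply and removal, 3 were higher with LPS in WT and none lower, beside 16.3% and 12.3% of all genes. They were Pla2g7, the secreted acetylhydrolase (1.72 ± 0.26, adjusted p = 0.000135), Lpcat2, a synthetic acyltransferase (1.59 ± 0.19, 1.78e-05), and Pafah1b2, an intracellular acetylhydrolase subunit (0.38 ± 0.10, 0.00724). In resting KO 3 differed from WT, beside 9.4% of all genes. The 2 higher ones were Pla2g7 by 1.61 ± 0.26 (0.00185) and Lpcat2 by 0.90 ± 0.19 (0.00832), and 1 was lower, Pafah2 (−0.71 ± 0.21, 0.0471). With LPS 1 was higher in KO (1.89% of all genes), Pla2g7, at 917, 1306 and 1174 CPM against 535, 400 and 636 CPM in WT (1.11 ± 0.25, 0.0196). Of 3 tested enzymes of oxysterol ligands, Cyp27a1 fell with LPS in WT by −1.07 ± 0.19 (0.000579) and was higher in resting KO than WT by 0.61 ± 0.18 (0.0451). Ch25h, the enzyme that makes the precursor of the Gpr183 ligand, lies below the level set for naming and was chosen after its values were seen. It had 1 to 2 counts in the resting WT libraries and stood at 0.804, 0.688 and 4.83 CPM in resting KO, highest in replicate 3, a ratio of 13.2 (95% exact counting interval 5.39 to 42.1; adjusted p = 0.019). Replicate 3 held 43 of the 65 counts, and without it the ratio was 5.84 (2.16 to 19.7) and Ch25h was not called (0.0898). With LPS it was at 3.86, 4.85 and 4.64 CPM in KO and 0.768, 0.273 and 1.25 CPM in WT (0.0421).

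Of 29 related metabolite and lipid receptors 12 passed the filter. With LPS in WT 5 were higher and 3 lower, beside 16.3% and 12.3% of all genes. The first were Lpar1 (2.04 ± 0.35, adjusted p = 0.000449), Cysltr1 (1.61 ± 0.19, 1.82e-05), Ptgir, S1pr2 and Gpr55, and the second Lpar6 (−1.45 ± 0.13, 6.45e-07), S1pr1 (−1.07 ± 0.27, 0.00668) and Lpar5. At rest 4 were higher in KO than in WT (5.12% of all genes), which were Lpar1 (1.24 ± 0.36, 0.0419), Cysltr1, Ptgir and Lpar6. With LPS 1 was higher (1.89% of all genes), Lpar1 (1.16 ± 0.30, 0.0372), and none was lower in either state. Lpar1, a receptor of lysophosphatidic acid, stood at 1.31, 2.11 and 3.00 CPM in resting WT and at 5.69, 4.36 and 4.72 CPM in resting KO. With LPS it was at 9.35, 7.17 and 9.38 CPM in WT and at 20.04, 22.4 and 15.4 CPM in KO, and the KO and WT libraries did not overlap in either state.

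Of 14 tested G protein subunits 3 were higher with LPS in WT, which were Gng12 (0.87 ± 0.22, adjusted p = 0.00781), Gnb1 (0.44 ± 0.09, 0.00234) and Gnb2, and 2 were lower, Gna12 (−0.91 ± 0.21, 0.0043) and Gng2 (−0.65 ± 0.16, 0.00643), near the 16.3% and 12.3% of all genes. None was called between KO and WT, where 9.4% of all genes were called at rest and 4.79% with LPS. Of 19 genes of cyclic AMP metabolism 2 were higher, Pde4b, a phosphodiesterase (1.73 ± 0.31, 0.000683), and the kinase subunit Prkar2b (1.26 ± 0.14, 8.88e-06), and 4 were lower, which were Pde3b (−1.90 ± 0.19, 2.6e-06), Adcy3 (−1.53 ± 0.38, 0.00698), Prkacb and Prkar1a, again beside 16.3% and 12.3% of all genes. None of them was called between KO and WT. Of 16 receptor kinases, arrestins and RGS proteins, which end receptor signals, 5 were higher with LPS in WT (Rgs3, Grk3, Rgs14, Grk5 and Grk2) and 5 lower (Rgs1, Rgs2, Rgs10, Rgs18 and Rgs12), beside the same shares of all genes. Rgs1 went from 408, 308 and 342 CPM to 45.3, 35.1 and 45.3 CPM (−3.07 ± 0.29, 1.24e-06). It was lower in KO than in WT at rest (−1.09 ± 0.27, 0.0173) and with LPS (−1.23 ± 0.28, 0.018). Rgs2 was lower in KO with LPS by −0.62 ± 0.11 (0.00382), Grk2 was higher by 0.33 ± 0.08 (0.0328), and at rest 2 of the list were higher in KO (Grk5 and Rgs3) and 4 lower (Rgs1, Rgs12, Rgs18 and Rgs2), beside 9.4% of all genes called. In 3′F no gene of these 7 lists was called against WT at rest or with LPS, where 0% and 0.00881% of all genes were called.

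**Figure D5:**
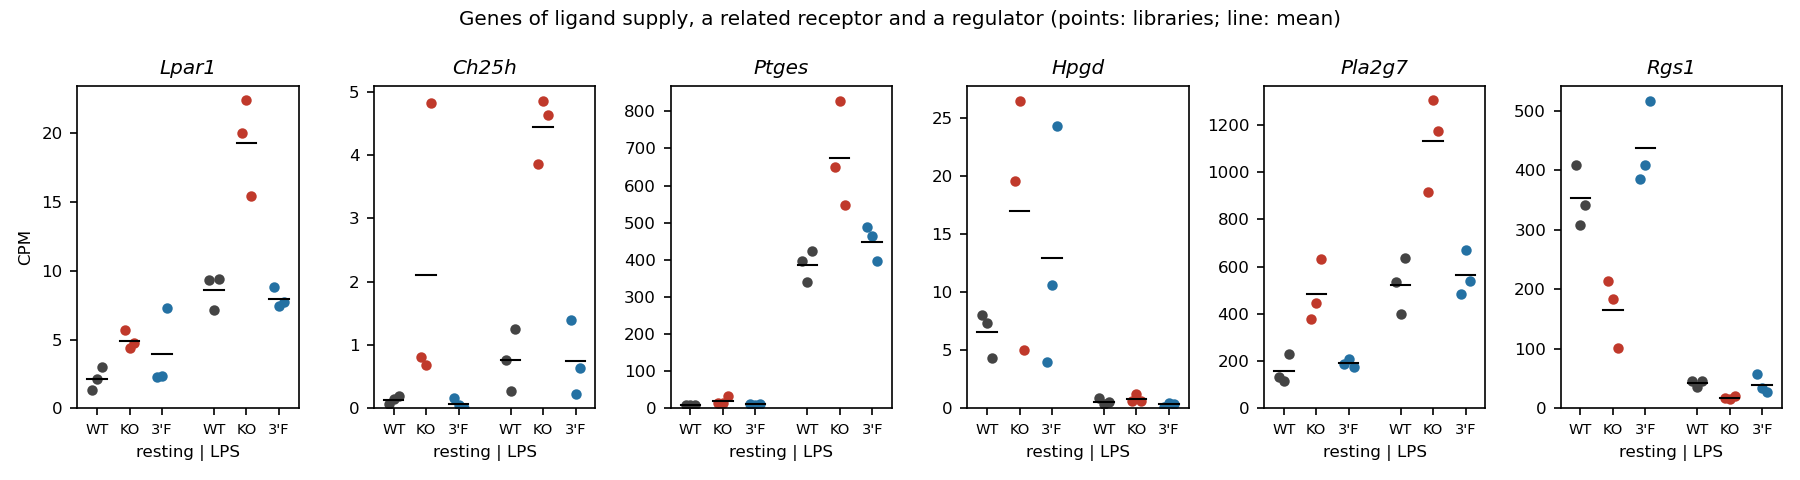
Levels in CPM (linear vertical axes from 0) of Lpar1, Ch25h, Ptges, Hpgd, Pla2g7 and Rgs1 in the 18 libraries, split into resting and LPS; points are libraries and lines are means of 3. With LPS, Lpar1 is at 15.4 to 22.4 CPM in KO and at 7.17 to 9.38 CPM in WT.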

How the data were processed

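RNA of 18 BMDM libraries, 3 for each of 6 groups given by the labels, was sequenced from strand-specific libraries after ribosomal RNA was removed. Per the labels and the study's methods, the authors trimmed reads with cutadapt 1.8.3, removed ribosomal DNA reads, aligned the rest to mm10 with HISAT2 2.1.0 and counted them by strand per Gencode M15 gene with featureCounts 1.5.3. The deposited table holds raw counts of 21734 protein-coding genes and an exon length. Genes were kept with filterByExpr of edgeR 4.0.16 in R 4.3.3, scaled by TMM (factors 0.812 to 1.15), and all libraries entered 1 quasi-likelihood fit with a term per group. The 11 two-sided comparisons were adjusted by Benjamini-Hochberg over 11357 genes and called under 0.05, with SE taken as the log2 fold change over the square root of F. Values are CPM with 3 libraries per group, and log2 CPM for correlations used a prior count of 2. An exact permutation of 3 against 3 libraries cannot give a p under 0.1, so no such test was used. The procedure was tested on simulated data that gave every gene the same spread and held no outlier library. Genes of the lowest levels were not changed there, so that test does not cover genes near the floor. Replicates differed by more than sampling noise in every pair (chi-square per degree of freedom of 7.19 or more), so none was a second copy. The labels do not tie libraries to single mice, so p-values measure the spread between these libraries. Intervals of log2 fold changes come from the SE of the fit, while exact intervals of count ratios cover counting error only.

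Alternatives were DESeq2 1.42.0, its size factors, no filter, the compared groups alone, a replicate block and leaving out each library. Gene positions and 3′ UTRs came from GENCODE M21 and promoters and miRNAs from RefSeq, both of GRCm38, the build of mm10. Promoter entries were found for 9 of 10 members. The genes named beyond the members are up to 2 higher and 2 lower called genes (average log2 CPM of at least 1) per list for LPS in WT and for KO against WT in each state, and the 3 genes most correlated with each member. Lists with 5 or fewer called genes are named in full. A gene of these lists and a correlated gene are not reported here. The members, lists and tests were chosen with earlier results of these data known.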

Additional observations from a re-analysis of the deposited data

How the results depend on the processing

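Between KO and WT at rest, 5 receptors were called in the fit of all groups and 1 with the compared groups alone, and leaving out single libraries gave 1 to 4. With LPS, 2 became 4 with the compared groups alone and 4 with DESeq2 (Gpr65 and Hcar2 added), and 0 to 2 when single libraries were left out. Between KO and 3′F at rest, 3 became 0 with the compared groups alone and 5 with DESeq2 (Gpr18 and Ptger4 added), and with LPS 2 became 0 whichever library was left out, 3 with the compared groups alone (Gpr65 added) and 3 with DESeq2 (Hcar2 added). For the interaction of KO with LPS, 0 became 1, Gpr183, when resting KO replicate 3 and resting 3′F replicate 3 were both left out, which was chosen after seeing the data. A fit of 2 compared groups alone filtered and scaled the genes anew, and its spread came from 6 libraries in place of 18. The cause of any of these changes was not tested. No called value changed sign under any alternative run. Shares of all genes called are given for the main fit only. Counts of receptors called under alternatives, Gpr183 in the interaction included, thus have no share of the same fit beside them.

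The replicate numbers are not stated to mark the same mouse. Deviations of same-numbered resting and LPS libraries of 1 genotype correlated at 0.0283 to 0.318, with 5 of 9 above 0.1, and 15 of 18 libraries correlated best with their own number, a hint from the data. A replicate block within genotype called 8, 6 and 9 receptors for LPS in WT, KO and 3′F (Gpr65 in KO at an adjusted p of 0.0501). A replicate block across genotypes called 4 between KO and WT at rest (Gpr18 at 0.0559) and 4 between KO and 3′F at rest (Ptger4 at 0.0374), and changed no other call. Depth limits Gpr18 at rest, with 0 to 12 counts per library, and Gpr35.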
